A study of Mus musculus with 4 samples.

Results

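The 7 fibrillar collagen genes Col1a1, Col1a2, Col2a1, Col3a1, Col5a1, Col5a2 and Col11a1 and the 3 type VI collagen genes Col6a1, Col6a2 and Col6a3 were followed in sorted mouse kidney cells. These 10 genes, of 52636 in the files, were chosen by symbol, with their levels in these libraries already known, because Col1a1 and Col1a2 stood on opposite sides of control. All 10 passed the filter on low counts. Each difference between the groups is therefore a description of the members, and no test of it is offered as support.

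The samples are mouse kidney cells isolated by FACS (sorting on fluorescence), with 2 control libraries and 2 libraries labelled Brg1-cKO, where cKO commonly stands for conditional knockout. Brg1, encoded by Smarca4, is a motor subunit of the SWI/SNF chromatin remodellers, which slide or evict nucleosomes. Each library was made from 3000 cells. The sources used here do not give the deleting Cre line, the alleles carried by either group, the sorting marker, the age and strain of the mice or the number of animals behind a library. Whether replicate libraries stand for different mice is not stated, so their spread, and any p-value built on it, may be technical.

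Fibrillar collagens are built from 3 chains wound into a long triple helix, and the helices pack side by side into the fibrils of connective tissue. Type I collagen, the main fibril former, joins a pair of chains from Col1a1 with a single chain from Col1a2. Type III collagen is a homotrimer of the Col3a1 chain and lies in the same fibrils. Type V collagen, from Col5a1 and Col5a2, starts fibril assembly, and type XI collagen, with the Col11a1 chain, does so in cartilage beside type II collagen, the homotrimer of Col2a1. Type VI collagen assembles from the chains of Col6a1, Col6a2 and Col6a3 into beaded filaments near cell surfaces. In the developing kidney these proteins are known mainly as products of the stroma, the mesenchyme between the nephrons.

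The difference between the fibrillar and the type VI genes can be read in their coding sequence, since a collagen helix is a chain of 3-residue repeats that each start with glycine, and all glycine codons begin with GG. Both type I chains, the type III chain and 2 type VI chains are shown to contrast the families, each by the first 45 bases of the longest unbroken run of such repeats. Capitals mark the glycine codon that opens each repeat (GENCODE M21 transcripts, coding strand, 5′ to 3′).
Col1a1: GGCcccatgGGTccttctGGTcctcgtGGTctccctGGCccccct
Col1a2: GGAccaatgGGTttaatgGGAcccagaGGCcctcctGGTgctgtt
Col3a1: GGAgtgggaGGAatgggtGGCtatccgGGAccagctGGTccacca
Col6a1: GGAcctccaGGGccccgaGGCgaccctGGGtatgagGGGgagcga
Col6a3: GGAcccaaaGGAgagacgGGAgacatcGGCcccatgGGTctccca

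In the 7 fibrillar genes this run held 338 to 344 repeats. It covered 69.8% of the coding bases of Col1a1 and 74.1% of those of Col1a2. It held 87 repeats in Col6a1, 87 in Col6a2 and 45 in Col6a3, where it covered 5.04% of the coding bases. No stretch of 75 bases, the read length, occurred in the coding transcripts of more than 1 of the 10 genes.

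Promoter sequences were found in the RefSeq table (build GRCm38.p6) for Col1a2, Col3a1, Col5a1, Col6a1, Col6a2, Col6a3 and Col11a1. Those of Col3a1, which stood lower in Brg1-cKO, and of Col1a2, which stood higher, are shown because the results turn on these opposite directions. The Col3a1 stretch is chr1:45311288-45311537 on the plus strand, the 250 bases before the start. The Col1a2 stretch is chr6:4505370-4505492 on the plus strand, the 123 bases of its window that lie in no annotated exon. It lies inside the annotated Col1a2 gene, which begins at 4504814, and does not reach the RefSeq start. The Col3a1 stretch instead ends right before its annotated gene, which begins at 45311538. Capitals mark the motifs found.
Col3a1: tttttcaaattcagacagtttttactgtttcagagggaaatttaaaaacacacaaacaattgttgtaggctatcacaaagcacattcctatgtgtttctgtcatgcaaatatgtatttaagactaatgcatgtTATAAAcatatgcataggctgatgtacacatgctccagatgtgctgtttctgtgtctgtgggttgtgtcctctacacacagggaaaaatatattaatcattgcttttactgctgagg
Col1a2: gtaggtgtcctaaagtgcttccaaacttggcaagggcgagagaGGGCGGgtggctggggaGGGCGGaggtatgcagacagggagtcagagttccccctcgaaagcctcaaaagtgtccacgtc

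Both strands were searched for the CCAAT box, for the GC box GGGCGG and for the TATA box TATAAA, and no match overlapped another. GGGCGG occurred 2 times in the Col1a2 stretch, 205 and 188 bases before the RefSeq start, and TATAAA 1 time in the Col3a1 stretch, 117 bases before it. Of all 32851 windows of 250 bases in the table, 32.7% held the GC box, 33.8% the CCAAT box and 12.4% the TATA box. The Col3a1 stretch had a GC content of 35.2% over 250 bases and the Col1a2 stretch one of 59.3% over 123 bases. Among the other members, Col5a1 and Col11a1 also held the GC box 2 times each and Col6a2 1 time. Of the 7 stretches, that of Col11a1 alone held the CCAAT box. The Col1a2 and Col6a1 stretches held only 123 and 126 bases, and the rest of their windows was not searched. Their lack of a motif is therefore no sign that the whole window lacks it, and the shares above are over whole windows. Such matches describe the letters only.

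The libraries differed in depth and quality along the groups. Counts on genes were 35411905 and 37999342 in control and 14645665 and 10922272 in Brg1-cKO. Of uniquely aligned reads, 16.5% and 15.4% fell outside genes in control, and 49.5% and 57.2% did in Brg1-cKO. Unaligned reads made up 6.32% and 6.69% of reads in control and 21.3% and 25.5% in Brg1-cKO. Smarca4, the targeted gene, was at 898 and 937 CPM (counts scaled to library size) in control and at 760 and 691 CPM in Brg1-cKO. It was lower but not absent as counted over the whole gene (log2 fold change -0.34, SE 0.09, edgeR adjusted p = 0.167). The smallest edgeR adjusted p of any gene was 0.166. Xist was at 244 and 217 CPM in control and at 836 and 1205 CPM in Brg1-cKO, and the Y-linked Ddx3y at 76.0 and 78.8 CPM in control and at 1.05 and 3.27 CPM in Brg1-cKO, so a difference in sex cannot be told apart from genotype. Across 10274 genes with a mean of at least 10 CPM, the higher library of a pair stood a median of 1.07-fold above the lower one in control and 1.60-fold in Brg1-cKO. The part of these differences in the results that follow was not tested, except where a value is given.

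Col1a1 and Col1a2, the partner chains of type I collagen, stood on opposite sides of control in Brg1-cKO. Col1a1 was at 1047 and 1031 CPM in control and at 485 and 466 CPM in Brg1-cKO. Col1a2 was at 591 and 585 CPM in control and at 748 and 710 CPM in Brg1-cKO. Each pair of libraries lay close together and the groups did not overlap for either gene. The log2 fold change, Brg1-cKO over control, was -1.13 (SE 0.08) for Col1a1 and 0.31 (SE 0.08) for Col1a2. Col1a1 thus stood 2.19-fold below control and Col1a2 1.24-fold above it.

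The ratio of the partner chains within a library does not depend on how the libraries are scaled. Col1a2 had 0.565 and 0.567 reads for each Col1a1 read in the controls. It had 1.54 and 1.52 in the Brg1-cKO libraries. Within each group the ratio was nearly the same in both libraries, and between the groups it differed 2.71-fold, a log2 difference of 1.44. Per kilobase of the longest coding transcript, the Col1a2 to Col1a1 ratio was 0.626 and 0.629 in control and 1.71 and 1.69 in Brg1-cKO, the reverse of the order in control. Per kilobase of all annotated exons it was 0.298 and 0.299 in control and 0.815 and 0.805 in Brg1-cKO, so that on this scale Col1a1 stayed the higher chain in all 4 libraries.

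The annotated exons of Col1a2 hold much sequence that is an intron in its coding transcripts. Of its 12426 exon bases, 55.5% occur only in transcripts annotated as retaining an intron, against 7.47% for Col1a1, 28.8% for Col3a1 and 43.0% for Col2a1. Whether such bases were counted was not given in the sources used here. Among 925 protein-coding genes with a mean of at least 10 CPM and more than 50% of such bases, the median log2 fold change was 0.06, and among 3563 with none it was 0.04. Both Brg1-cKO libraries lay above both controls for 24.8% of the former and 23.1% of the latter. The part of retained-intron reads in the level of Col1a2 was not tested.

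**Figure D1:**
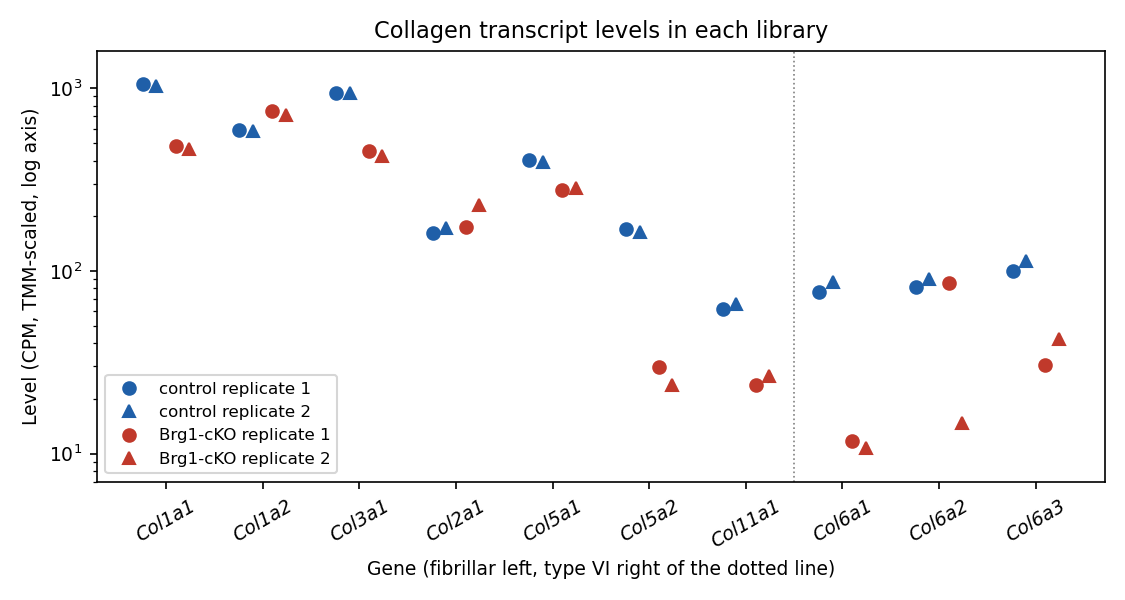
Level of each collagen gene (CPM on a log axis) in each library, with control in blue, Brg1-cKO in red and the replicate given by the symbol. The red points lie below the blue ones for 7 genes, above them for Col1a2 and Col2a1, and on both sides for Col6a2, whose Brg1-cKO libraries stand at 85.3 and 14.7 CPM.

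Col3a1, the chain of type III collagen, followed Col1a1 closely. It was at 941 and 934 CPM in control and at 455 and 425 CPM in Brg1-cKO, a log2 fold change of -1.09 (SE 0.09). Its ratio to Col1a1 in reads was 0.899 and 0.906 in control and 0.937 and 0.912 in Brg1-cKO, so these chains kept nearly the same proportion in all 4 libraries. Against Col1a2 the Col3a1 ratio was 1.59 and 1.60 in control and 0.608 and 0.598 in Brg1-cKO. The groups did not overlap in that ratio.

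The type V chains were lower by unequal amounts. Col5a1 was at 404 and 394 CPM in control and at 277 and 284 CPM in Brg1-cKO, a log2 fold change of -0.51 (SE 0.10). Col5a2 was at 169 and 163 CPM in control and at 29.9 and 23.6 CPM in Brg1-cKO, a log2 fold change of -2.63 (SE 0.22), or 6.20-fold below control. Neither gene overlapped between the groups, and the difference of Col5a2 was the larger in both Brg1-cKO libraries. The Col5a2 to Col5a1 ratio in reads was 0.417 and 0.415 in control and 0.108 and 0.0833 in Brg1-cKO. Col5a2 lies next to Col3a1 on chromosome 1, with 24.6 kb between them, and their log2 fold changes were -2.63 and -1.09.

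The cartilage chains had log2 fold changes of opposite sign, and Col2a1 was called by none of edgeR, DESeq2 and limma-voom. Col11a1, of type XI collagen, was at 61.7 and 65.8 CPM in control and at 23.8 and 26.6 CPM in Brg1-cKO, a log2 fold change of -1.34 (SE 0.26). Col2a1, of type II collagen, was at 162 and 171 CPM in control and at 174 and 228 CPM in Brg1-cKO, a log2 fold change of 0.27 (SE 0.19). The groups did not overlap for Col2a1, but Brg1-cKO replicate 1 stood only slightly above the higher control, and without Brg1-cKO replicate 2 the log2 fold change was 0.04. Chondrocytes, the cells of cartilage, are the best known source of type II collagen. Acan, Matn1, Snorc and Ucma, 4 of 9 chondrocyte markers, had 0 reads in both Brg1-cKO libraries and at most 1.30 CPM in control. Snorc had 0 reads in control too. Matn3 was at 0.699 and 0.311 CPM in control and at 19.8 CPM in Brg1-cKO replicate 1, with 0 reads in replicate 2. Comp was at 0.531 and 0.0259 CPM in control and at 10.3 CPM in Brg1-cKO replicate 2, with 0 reads in replicate 1. Hapln1 was at 37.2 and 32.7 CPM in control and at 2.80 and 29.6 CPM in Brg1-cKO, lower in both libraries (log2 fold change -1.11, SE 1.17). Of the 5 markers tested, 3 were above and 2 below 0, with a median of 0.79. The 9 markers, which include Col9a1 and Sox9 of the lists described later, summed to 135 and 131 CPM in control and 97.3 and 141 CPM in Brg1-cKO. Sox9, the transcription factor that drives Col2a1 in cartilage and is also made in kidney epithelium, was at 72.2 and 71.6 CPM in control and at 58.2 and 34.0 CPM in Brg1-cKO.

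The type VI chains, which enter 1 filament together, did not keep their proportions in Brg1-cKO. Col6a1 was at 76.7 and 86.8 CPM in control and at 11.7 and 10.7 CPM in Brg1-cKO, a log2 fold change of -2.86 (SE 0.28) and the largest of the 10 genes. Col6a3 was at 100.1 and 113 CPM in control and at 30.7 and 42.5 CPM in Brg1-cKO, a log2 fold change of -1.54 (SE 0.27). In both genes each Brg1-cKO library lay under each control. Col6a2 was at 82.0 and 90.2 CPM in the controls, and at 85.3 CPM in Brg1-cKO replicate 1 and 14.7 CPM in replicate 2. For Col6a2 the groups overlapped and the Brg1-cKO libraries differed 5.81-fold from each other, on 1220 and 157 reads. Its log2 fold change of -0.78 (SE 0.88) is thus an average of unlike values, and was -0.04 without replicate 2 and -2.58 without replicate 1.

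The Col6a2 to Col6a1 ratio in reads was 1.07 and 1.04 in control, and 7.26 and 1.37 in Brg1-cKO. The Col6a3 to Col6a1 ratio was 1.31 and 1.30 in control, and 2.61 and 3.96 in Brg1-cKO. Both controls held the 3 chains in nearly the same proportions, whereas the Brg1-cKO libraries differed from control and from each other. The log2 ratio of Col6a3 to the mean of the other chains, per kilobase of exons, was -0.71 and -0.70 in control and -1.33 and 0.75 in Brg1-cKO, on opposite sides of control. Col6a1 and Col6a2 lie side by side on chromosome 10, with 85.2 kb between them.

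**Figure D2:**
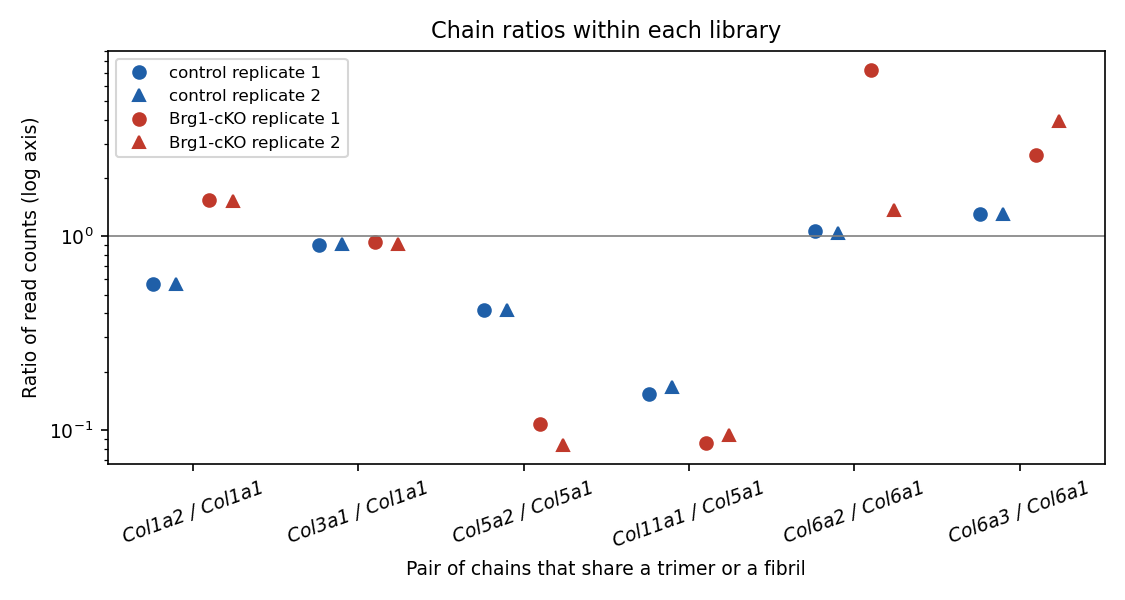
Ratio of read counts between chains that share a trimer or a fibril (log axis), 1 point per library, with control in blue and Brg1-cKO in red. Col3a1 to Col1a1 stays between 0.899 and 0.937 in all libraries, Col1a2 to Col1a1 lies at 0.565 and 0.567 in control and 1.52 and 1.54 in Brg1-cKO, and Col6a2 to Col6a1 differs between the Brg1-cKO libraries.

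Per kilobase of the longest coding transcript, the order of the levels in control was Col1a1 (175 ± 1.93 CPM per kb, SD, n = 2), Col3a1 (169 ± 0.895), Col1a2 (110.0 ± 0.903), Col5a1 (47.5 ± 0.861), Col2a1 (32.6 ± 1.31), Col5a2 (25.1 ± 0.572), Col6a1 (19.9 ± 1.75), Col6a2 (18.5 ± 1.25), Col6a3 (10.5 ± 0.884) and Col11a1 (8.31 ± 0.384). Only the neighbours Col6a1 and Col6a2 overlapped over the control libraries. In Brg1-cKO Col1a2 led with 136 ± 4.97 CPM per kb. Col1a1 (80.2 ± 2.22) and Col3a1 (79.0 ± 3.75) followed and overlapped each other. The remaining order was Col2a1 (39.4 ± 7.52), Col5a1 (33.4 ± 0.542), Col6a2 (10.7 ± 10.7), Col5a2 (4.04 ± 0.670), Col6a3 (3.62 ± 0.828), Col11a1 (3.29 ± 0.264) and Col6a1 (2.74 ± 0.172). Here the range of Col6a2 overlapped those of Col5a2, Col6a3 and Col11a1, and Col6a3 overlapped Col5a2 and Col11a1. The 7 fibrillar genes summed to 3376 and 3344 CPM in control and 2192 and 2164 CPM in Brg1-cKO, and Col1a2 made up 17.5% and 17.5% of that sum in control and 34.1% and 32.8% in Brg1-cKO.

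Across all 18172 genes tested, edgeR's quasi-likelihood test with Benjamini-Hochberg adjustment called 0 genes at an adjusted p of 0.05 (0% called), and 0 of the 10 collagens. At an unadjusted p under 0.05 it listed 7 of the 10 as lower and 1, Col1a2, as higher, where 18.3% of all genes were listed, 12.9% as lower and 5.44% as higher. DESeq2 called 8 of the 10 (10.8% of the genes it adjusted) and limma-voom 2, Col1a1 and Col3a1 (1.8% of genes). The groups did not overlap for 9 of the 10, 7 of them lower and 2 higher in Brg1-cKO. The same held for 52% of all tested genes, and for 49.2% of those with a mean of at least 10 CPM (25.5% lower and 23.6% higher). Since the members were chosen from this contrast, nothing is read from these counts. Their median log2 fold change was -1.11, that of all genes tested -0.06.

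The genes most like Col1a1 over the 4 libraries were Mmp2, Col3a1, Mbtps2, S100a11 and Rbms3. Likeness was the Euclidean distance between log2 levels centred on each gene's mean, taken over genes with a mean of at least 10 CPM. Mmp2, a secreted protease that cuts matrix proteins, was the nearest at 0.0253, with 204 and 205 CPM in control and 96.4 and 91.6 CPM in Brg1-cKO. Col3a1 came next at 0.0455. For Col1a2 the nearest genes were Taf2, Hip1r, Prpf38b, Sall1 and Atp9b, at distances of 0.0265 to 0.0408. Sall1, a transcription factor of nephron progenitors, was at 439 and 441 CPM in control and 548 and 536 CPM in Brg1-cKO. The median distance over all genes compared was 1.35 from Col1a1 and 0.826 from Col1a2, and the type I chains lay 1.44 from each other. With 4 libraries in 2 groups, this likeness is mostly the size of the group difference.

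The rest of the pathway is covered by 7 lists, and 91 of their genes were tested. EdgeR's quasi-likelihood test called 0 of these 91 at an adjusted p of 0.05, and at an unadjusted p under 0.05 listed 19 as lower (20.9%, against 12.9% of all genes) and 8 as higher (8.79%, against 5.44%). DESeq2 called 20 of the 91, 9 as higher and 11 as lower, where it called 10.8% of all genes it adjusted. Limma-voom called 3 of the 91, where it called 1.8% of all genes. These were Col5a3, Fmod and Itga10, all of them lower and all at 0 reads in both Brg1-cKO libraries. The median log2 fold change of the 91 was -0.33. Genes named in the next paragraphs are the 4 of each list with the highest level per kilobase, unless a sentence says otherwise. None of them passed edgeR's adjusted threshold, so their values are given without a verb of change.

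Other fibrillar and type VI chains had a median log2 fold change of -0.92, with 3 of 7 above and 4 below 0. At an unadjusted p under 0.05 in edgeR, 1 was higher and 2 were lower. Col11a2, the partner of Col11a1 in type XI collagen, was at 22.7 and 21.1 CPM in control and 68.3 and 42.3 CPM in Brg1-cKO, a log2 fold change of 1.34 (SE 0.37) and thus opposite in sign to Col11a1. Col27a1, a fibrillar chain of cartilage, was at 77.2 and 80.5 CPM in control and at 105 and 54.7 CPM in Brg1-cKO, on both sides of control. Col24a1 and Col6a6 had log2 fold changes of -1.90 (SE 1.24) and -0.92 (SE 0.61). Outside the naming rule, Col5a3, a minor type V chain, was at 2.35 and 3.01 CPM in control and had 0 reads in both Brg1-cKO libraries, where 3 reads would be 0.21 and 0.28 CPM.

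Fibril-associated collagens, which sit on the surface of fibrils, had 6 of 8 tested members below 0 and 2 above, with a median of -0.70, and 2 lower and 1 higher at an unadjusted p under 0.05. Col12a1 was at 120 and 116 CPM in control and 45.1 and 26.3 CPM in Brg1-cKO, a log2 fold change of -1.72 (SE 0.34). Col14a1 had -1.26 (SE 0.39) and Col16a1 -0.49 (SE 0.22). Col9a1, of the collagen that coats cartilage fibrils, was at 23.5 and 24.8 CPM in control and at 16.5 and 67.4 CPM in Brg1-cKO.

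Genes of collagen folding and modification lay on both sides of control, 12 of 21 above and 9 below 0, with a median log2 fold change of 0.04. In 6 of them both Brg1-cKO libraries were above control (17.5% of all tested genes were) and in 3 both were below (34.5% were). At an unadjusted p under 0.05 in edgeR, 3 were higher and 1 was lower. Serpinh1, the collagen chaperone HSP47 by its older name, was at 966 and 983 CPM in control and at 1119 and 781 CPM in Brg1-cKO, on both sides of control. P4hb, the shared subunit of the prolyl hydroxylases that stabilise the helix, had a log2 fold change of -0.20 (SE 0.09). Crtap and Ppib, partners of a further prolyl hydroxylase, had 0.33 (SE 0.21) and 0.12 (SE 0.27).

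Genes of procollagen processing and crosslinking had a median of -1.01, with 4 of 13 above and 9 below 0, and 1 higher and 3 lower at an unadjusted p under 0.05. Bmp1, the protease that removes the procollagen C-propeptide, was at 147 and 159 CPM in control and 104 and 99.0 CPM in Brg1-cKO. Its enhancer Pcolce stood at 38.3 and 43.6 CPM in control and 29.4 and 17.2 CPM in Brg1-cKO. Of the crosslinking enzymes, Loxl1 was at 61.4 and 73.1 CPM in control and 158 and 120 CPM in Brg1-cKO (1.05, SE 0.24), and Loxl2 had -1.01 (SE 0.32).

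Matrix proteins that bind fibrils or lie beside them had 13 of 16 below 0 and 3 above, a median of -0.83, and 4 lower and 0 higher at an unadjusted p under 0.05 in edgeR. Fn1, the cell-adhesive glycoprotein fibronectin, was at 1298 and 1325 CPM in control and 853 and 664 CPM in Brg1-cKO. The fibrillins Fbn2 and Fbn1, of elastic microfibrils, had log2 fold changes of -0.59 (SE 0.08) and -1.03 (SE 0.22), and Sparc, a collagen-binding protein, -0.20 (SE 0.10). Fn1, Fbn1, Fbn2 and Sparc did not overlap between the groups. Of the 16 genes, 11 lay below control in both Brg1-cKO libraries and 1 above it, where 34.5% and 17.5% of all tested genes did.

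Collagen receptors had a median of -0.31, with 5 of 12 above and 7 below 0, and 2 higher and 4 lower at an unadjusted p under 0.05. The discoidin receptor Ddr1, a collagen-sensing kinase of epithelia, was at 140 and 139 CPM in control and 258 and 213 CPM in Brg1-cKO (0.76, SE 0.16). Itgb1, the common beta chain of collagen-binding integrins, had -0.32 (SE 0.14), the collagen uptake receptor Mrc2 0.21 (SE 0.25) and Cspg4, a receptor for type VI collagen, 0.58 (SE 0.20). Outside the naming rule, Ddr2, the discoidin receptor of mesenchyme, was at 75.5 and 68.8 CPM in control and 20.7 and 31.3 CPM in Brg1-cKO (-1.47, SE 0.33), opposite in sign to Ddr1.

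Known regulators of collagen genes had a median of -0.23, with 5 of 14 above and 9 below 0, and 3 lower and 0 higher at an unadjusted p under 0.05 in edgeR. Sp1 and Sp3, which bind GC-rich promoters, had log2 fold changes of 0.31 (SE 0.17) and -0.69 (SE 0.29). Smad3, the transducer of transforming growth factor beta, had -0.51 (SE 0.15), and Nfyc, a subunit of the CCAAT-binding factor, 0.12 (SE 0.26).

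**Figure D3:**
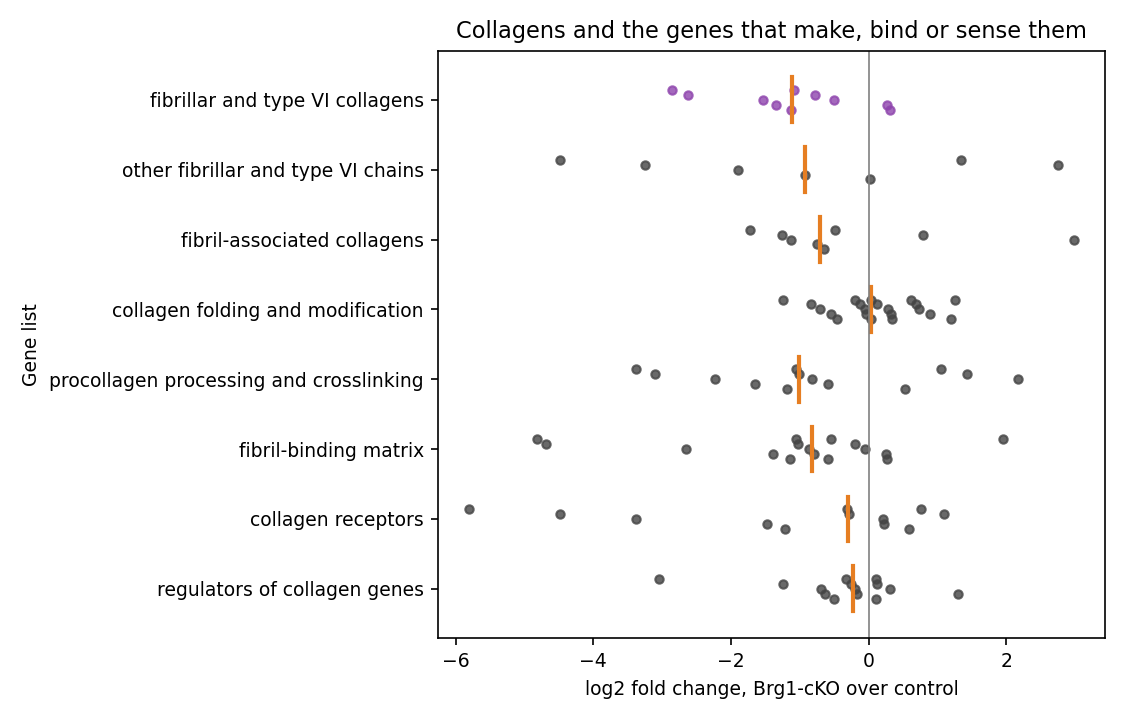
Log2 fold change, Brg1-cKO over control, of each tested gene (points) in each list, with the list's median as an orange bar, and genes at 0 reads in both libraries of a group placed at the bound given by 3 reads over the group. The 10 collagens have a median of -1.11, matrix proteins -0.83 and folding genes 0.04.

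Markers of several cell types differed between the groups along with the collagens. In a sorted pool, fewer cells of a type and less RNA per cell cannot be told apart. Of 12 renal stroma markers, of which Dcn and Lum also stand in the matrix list, 11 lay below control in both Brg1-cKO libraries (34.5% of all tested genes did so), with a summed level of 1058 and 1048 CPM in control and 502 and 534 CPM in Brg1-cKO. Foxd1, the transcription factor that defines stromal progenitors, was at 180 and 171 CPM in control and 91.4 and 137 CPM in Brg1-cKO, and Twist2 had 0 reads in both Brg1-cKO libraries. The part of the stroma in the lower Col1a1, Col3a1, Col5a2 and Col6a1 was not tested. The median log2 fold change of the 12 stroma markers was -1.53, against -1.13 for Col1a1, -1.09 for Col3a1, -2.63 for Col5a2, -2.86 for Col6a1 and 0.31 for Col1a2.

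The 7 mural and smooth muscle markers, of which Cspg4 also stands in the receptor list, summed to 152 and 157 CPM in control. In Brg1-cKO they summed to 229 and 194 CPM, with Ren1 at 0 reads in both libraries. Their log2 fold changes lay above 0 for 4 and below 0 for 3. Cnn1, among those above 0, was at 23.7 CPM in Brg1-cKO replicate 1 and at 0.0934 CPM in replicate 2. Endothelial markers summed to 564 and 576 CPM in control and 305 and 140 CPM in Brg1-cKO, and immune markers to 114 and 111 CPM and 47.7 and 56.8 CPM. Of the 7 immune markers, 6 lay below 0 and 1, Adgre1, above. The Brg1-cKO immune sums rest in part on different genes. Csf1r was at 25.7 CPM in replicate 1 and at 0 in replicate 2, and Adgre1 at 0 and 29.9 CPM. Ureteric bud markers summed to 194 and 196 CPM in control and 50.7 and 49.8 CPM in Brg1-cKO, with Calb1 and Wnt9b at 0 reads in both Brg1-cKO libraries. Of the 7 ureteric bud markers tested, 6 lay below control in both Brg1-cKO libraries. So did 6 of 7 endothelial and 5 of 7 immune markers (34.5% of all tested genes did). Gata3 overlapped control, at 28.7 and 31.5 CPM in control and 35.1 and 18.1 CPM in Brg1-cKO. The endothelial Plvap overlapped too, at 93.2 and 92.3 CPM in control and 100.1 and 49.2 CPM in Brg1-cKO.

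The 8 nephron progenitor markers summed to 841 and 817 CPM in control and 833 and 793 CPM in Brg1-cKO. Their members lay on both sides: Osr1 and Itga8 were above control in both Brg1-cKO libraries, Six2 and Meox1 below it in both, and the other 4 overlapped. Of all genes with a mean of at least 10 CPM, 23.6% were above control in both libraries and 25.5% below it. The log2 fold change of Itga8 was 0.11 (SE 0.14). The 8 podocyte markers, of the cells that build the glomerular filter, summed to 926 and 966 CPM in control and 3275 and 2929 CPM in Brg1-cKO, with 8 of 8 higher in both libraries (17.5% of all tested genes were). The erythroid list was at most 0.841 CPM in any library. The part of these cell types in the level of Col1a2 was not tested.

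**Figure D4:**
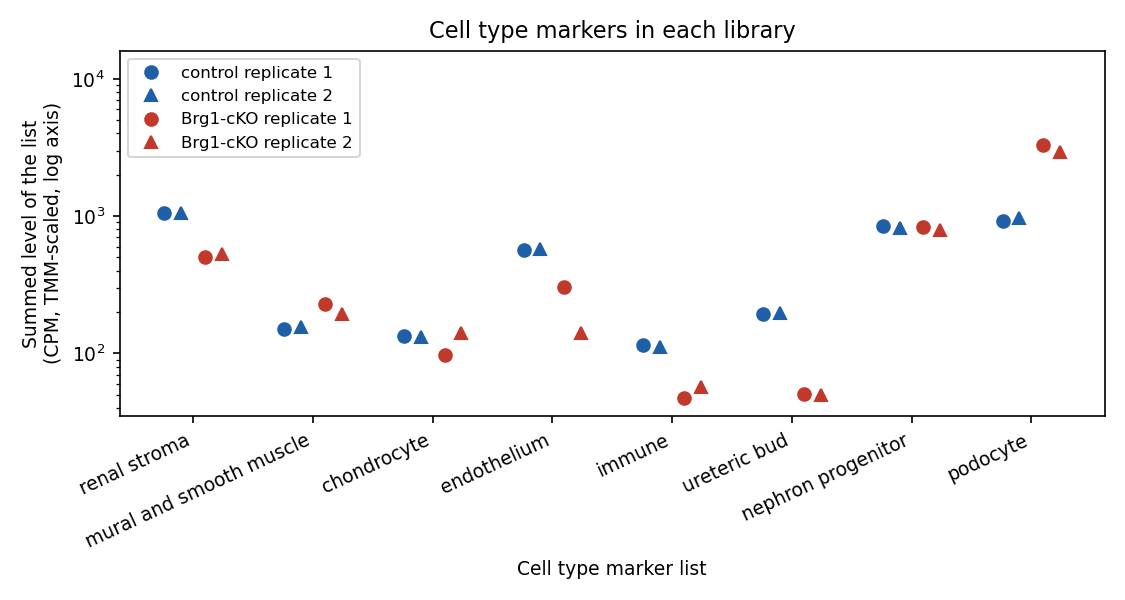
Summed level of each cell type marker list but the erythroid one (CPM on a log axis) in each library, with control in blue and Brg1-cKO in red. Stroma, endothelium, immune and ureteric bud markers lie lower in both Brg1-cKO libraries, the sums of nephron progenitor markers lie between 793 and 841 CPM in all libraries, and podocyte markers reach 3275 and 2929 CPM against 926 and 966 CPM in control.

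In the GENCODE M21 annotation of mm10, all 10 are protein-coding genes. Col1a1 lies on chromosome 11 from 94936224 to 94953042 and Col1a2 on chromosome 6 from 4504814 to 4541544, both on the plus strand. Col3a1 (45311538 to 45349706, plus), Col5a2 (45374321 to 45503282, minus) and Col6a3 (90765923 to 90843971, minus) lie on chromosome 1. Col6a2 (76595762 to 76623630) and Col6a1 (76708792 to 76726168) lie on chromosome 10, both on the minus strand. Col5a1 lies on chromosome 2 from 27886425 to 28039514 and Col11a1 on chromosome 3 from 114030540 to 114220718, both on the plus strand, and Col2a1 on chromosome 15 from 97975602 to 98004695 on the minus strand. Col5a1 shares 99 and 113 exon bases with a pair of noncoding genes on the other strand, 1.17% and 1.33% of its exons, and Col3a1 shares 141 exon bases (1.44%) with a microRNA gene on its own strand. Reads in these shared parts may have been left out or counted to either gene.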

How the data were processed

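The authors deposited 1 table of raw read counts per gene for each of 4 libraries, as whole numbers. Summary lines for reads not counted to a gene, unaligned reads included (31.8% to 72.1% of reads), entered neither library sizes nor tests. Per the labels' protocols, mRNA from 3000 sorted cells gave strand-specific libraries read as single ends of 75 bases. Per the submitters' processing notes, mm10, TopHat and DESeq2 were used. The sources used here do not give the counter, its strand setting or its annotation.

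Gene names were matched for 52403 of 52636 identifiers. Counts were fitted with edgeR 4.0.16 (R 4.3.3) with group as the only term, TMM scaling, the default filter (minimum count 10), robust dispersions, the quasi-likelihood F test and Benjamini-Hochberg adjustment at 0.05. CPM use TMM-scaled library sizes. Standard errors are the size of the log2 fold change over the square root of its F statistic. A count of 0 allows up to 3 reads, and such limits cover counting error only. The smallest exact two-sided permutation p for 2 against 2 libraries is 0.333.

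Alternatives were DESeq2 1.42.0 on all genes, limma-voom (limma 3.58.1), other scalings, other filters, a replicate block and each library left out. The fits were tested on simulated data. The simulation gave both groups the same spread, which the libraries here did not have. Members, gene lists and the rule for named genes (all members, the 4 genes per list with the highest level per kilobase, any gene past the threshold, and the 5 most like Col1a1 and Col1a2, predicted genes left out) were chosen with earlier results of these data known. The retained-intron comparison and lengths of coding transcripts were added after seeing the data.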

Additional observations from a re-analysis of the deposited data

How the results depend on the processing

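The Col1a2 to Col1a1 difference was 1.43 to 1.45 on the log2 scale when any library was left out, and 1.44 with either other length. None of the 10 collagens changed sign under the 11 alternatives run. DESeq2 called 2027 genes, 8 of the collagens and 20 of the pathway genes. Limma-voom called 327, 2 and 3. With 0 genes called by edgeR, RLE scaling, total counts, no filter and a filter of 10 CPM in 2 libraries also gave 0 for all genes, collagens and pathway genes. With a library left out, calls ran from 16 to 13262 for all genes, 0 to 10 for the collagens and 0 to 76 for the pathway genes. The high values came without Brg1-cKO replicate 1 (12315 genes) or 2 (13262), which left a lone library whose spread was taken from the controls. Without control replicate 2 only Col1a1 of the collagens was called. The replicate number was no sign of pairing (correlation of deviations -0.0169 over 18172 genes), and a replicate block gave 156 genes, 4 collagens (Col1a1, Col3a1, Col5a2 and Col6a1) and 2 pathway genes (Fn1 and Col12a1). The type VI balance, 0.42 on the log2 scale, was -0.63 without Brg1-cKO replicate 2, a reversal, and ran from -0.63 to 1.46 over the libraries left out. It rests on Col6a2, which differed 5.81-fold between the Brg1-cKO libraries. The fewest reads behind a collagen value were 115, for Col6a1 in Brg1-cKO replicate 2.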

Other observations

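The genes beside the collagen genes were read as well from the 3 nearest protein-coding genes on each side within 500 kb, a choice made after the data were seen, and the examples given were picked with their values in view. Next to Col1a2, Casd1 lies 59.3 kb away and was at 81.8 and 71.1 CPM in control and at 31.7 and 135 CPM in Brg1-cKO, on both sides of control. Sgce, 132.8 kb away, lay between 15.7 and 17.2 CPM in all 4 libraries. Peg10, an imprinted gene 205.8 kb away, was at 246 and 252 CPM in control and 212 and 187 CPM in Brg1-cKO, lower in both libraries. On the other side, Gng11, 496.4 kb away, was at 16.9 and 15.5 CPM in control and at 28.8 and 33.1 CPM in Brg1-cKO, higher in both libraries as Col1a2 was. Next to Col1a1, Sgca and Hils1 had at most 1 read in any library, and Ppp1r9b, 37.99 kb away, was at 192 and 198 CPM in control and at 124 and 230 CPM in Brg1-cKO, again on both sides of control.

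Near the type VI pair on chromosome 10, Pcbp3 lies 35.7 kb from Col6a1 and was at 43.0 and 42.0 CPM in control and at 19.9 and 70.3 CPM in Brg1-cKO. Lss, 38.6 kb from Col6a2, was at 37.1 and 40.3 CPM in control and 45.7 and 35.6 CPM in Brg1-cKO. Col18a1, a collagen of basement membranes 326 kb from Col6a1, was at 467 and 463 CPM in control, and at 738 CPM in Brg1-cKO replicate 1 and 452 CPM in replicate 2. Beyond Col5a2, Slc40a1, the iron exporter 404.8 kb away, was at 54.6 and 51.9 CPM in control and at 1.82 and 30.6 CPM in Brg1-cKO.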
